A study of Mus musculus with 6 samples.

Results

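Hemoglobin and red blood cell genes were followed in kidney RNA of WT and Selenbp1-KO mice through 7 genes, namely Hba-a1, Hbb-b1, Hbb-bt, Alas2, Ahsp, Hemgn, and Bpgm. The members are all array probes that the scanner output names by 1 of these genes, which gave 9 of 56605 probes, or 27 of 59305 spots, and 7 of 37325 named genes. The 7 genes were chosen from the measured difference between these Selenbp1-KO and WT arrays, so that difference is described for them and carries no test. Each mouse was a male, 8 weeks old and fasted for 20 h. Total RNA of its left kidney, kept in RNAlater and not frozen, was hybridized with the Cy3 dye to 1 array. By the methods the WT mice were of the C57BL/6J strain, and the background strain of the Selenbp1-KO line is not given there. There were 3 WT mice (replicates 2, 3, and 4) and 3 Selenbp1-KO mice (replicates 1, 2, and 3). The Selenbp1-KO line lacks Selenbp1 by a deletion whose making is described elsewhere, whereas the WT mice were, by the methods, bought from a commercial breeder, so genotype and source of the mice cannot be told apart. With 1 array per mouse, the spread between arrays of a genotype is that between mice and hybridizations together.

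Hemoglobin is a tetramer of α and β chains, each holding a heme, and it fills the red blood cell. In the mouse the adult α chains come from Hba-a1 and Hba-a2, and the adult β chains from a pair of genes that differs by strain, Hbb-bs and Hbb-bt in C57BL/6J and Hbb-b1 and Hbb-b2 in strains with the other haplotype. Alas2 makes the first step of heme synthesis in red cell precursors, Ahsp holds free α chains until they meet a β chain, Hemgn is a nuclear protein of developing blood cells, and Bpgm makes 2,3-bisphosphoglycerate, which lowers the affinity of hemoglobin for oxygen. Mature red cells of mammals have no nucleus, and young ones (reticulocytes) still carry mRNA rich in globin. A kidney taken without flushing its vessels holds blood, and no flushing is named in the sources used here. In bulk RNA, more cells of a type and more RNA per cell cannot be told apart.

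The probes are 60 bases long, and what they can read bears on every value given here. The first set is shown because the α-globin probes cannot separate Hba-a1 from Hba-a2. In the 3′ probe of Hba-a1 and the probe named for Hba-a2, whose first 30 bases are printed, capitals mark the bases they share. The probes are the same sequence shifted by 1 base, with 59 bases in common, and the files list both genes for each of them and for the coding probe.
Hba-a1, coding probe: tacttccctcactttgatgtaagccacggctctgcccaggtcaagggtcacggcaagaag
Hba-a1, 3′ probe: cTTCTTCTCTCCCTTGCACCTGTACCTCTT
Hba-a2, probe: TTCTTCTCTCCCTTGCACCTGTACCTCTTg

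The second set is shown because the β-globin probes read the other haplotype's names. The probe named Hbb-b1, whose bases 31 to 60 are printed with the start codon in capitals, is also listed for Hbb-bs, the gene that C57BL/6J carries. It ends 11 bases into the coding sequence counted from the start codon. The probe named Hbb-b2, printed whole with no capitals, is also listed for Hbb-b1.
Hbb-b1, probe: aaccccagaaacagacatcATGgtgcacct
Hbb-b2, probe: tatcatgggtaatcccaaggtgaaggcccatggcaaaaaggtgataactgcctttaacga

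The third set is shown because the probes of Hemgn gave opposite pictures. Bases 16 to 45 of each are printed, and capitals mark a run of alternating T and G that fills bases 25 to 60 of the first probe.
Hemgn, repeat probe: tagacaataGTGTGTGTGTGTGTGTGTGTG
Hemgn, second probe: ttcactgaaacactgcagcaatcactaaaa

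The promoters of members that moved together over the arrays are shown next, as the 150 bases before the gene's start in RefSeq (GRCm38.p6). Of the 7 members, 5 had a promoter there, and Hbb-bs is given for the probe named Hbb-b1. Capitals mark matches, on either strand, to TGATAA or AGATAA, letters that GATA1 is known to bind, and to CCNCNCCC, letters that KLF1 is known to bind. GATA1 and KLF1 are transcription factors of red cell precursors.
Hba-a1 promoter (chr11:32283522-32283671, plus strand): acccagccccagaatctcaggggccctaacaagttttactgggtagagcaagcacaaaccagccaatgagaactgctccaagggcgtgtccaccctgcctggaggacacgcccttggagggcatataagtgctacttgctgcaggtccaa
Hbb-bs promoter (chr7:103827929-103828078, minus strand): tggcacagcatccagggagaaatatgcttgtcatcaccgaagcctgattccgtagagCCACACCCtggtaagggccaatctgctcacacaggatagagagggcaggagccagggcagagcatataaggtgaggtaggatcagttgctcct
Hbb-bt promoter (chr7:103813924-103814073, minus strand): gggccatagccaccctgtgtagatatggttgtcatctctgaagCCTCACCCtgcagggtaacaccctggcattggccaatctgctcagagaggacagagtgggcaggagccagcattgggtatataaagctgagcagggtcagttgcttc
Alas2 promoter (chrX:150547267-150547416, plus strand): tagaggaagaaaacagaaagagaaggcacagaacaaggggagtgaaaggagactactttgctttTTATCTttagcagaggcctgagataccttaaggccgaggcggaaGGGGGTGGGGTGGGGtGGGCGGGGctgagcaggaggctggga

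Within 250 bases before the start, TGATAA or AGATAA was found in 3 of the 5 member promoters (Hba-a1, Alas2, and Hemgn) against 16.6% of 32851 promoters, and CCNCNCCC in 4 of the 5 (Hbb-bt, Alas2, Hemgn, and Bpgm) against 45.9%. Alas2 held 4 matches to CCNCNCCC on the minus strand, and no match to one motif overlapped a match to the other. The match of Hba-a1 begins 183 bases before the start and lies outside the printed stretch. The windows of Hba-a1 and Hba-a2 were identical at 297 of 297 bases once shifted by 3. These are matches of letters in a window, and binding was not measured.

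Every value below is the log2 of a probe's signal relative to the 75th percentile of its own array, so 0 is the level of that percentile, and the level of one probe says nothing of whether its gene is above another. Differences between a pair of probes on an array are given only to compare the genotypes. Values of single arrays are listed by replicate number, 2 to 4 for WT and 1 to 3 for Selenbp1-KO. Selenbp1, the targeted gene, was at 7.07, 7.02, and 7.02 in WT, and at 4.13, 3.98, and 4.10 in Selenbp1-KO, so the labels stand. The 75th percentile itself lay between 477 and 751 intensity units, between 51.8% and 55.5% of spots were well above background, and no spot was saturated. All arrays share 1 slide. WT replicates 2 and 3 lie in its first row and WT replicate 4 lies in the second with the 3 Selenbp1-KO arrays, so values within the second row rest on 1 WT array. Kidney epithelium markers were well above background for 10 of 10 genes, and 0 of them passed an unadjusted p under 0.05 in limma, the threshold the study's methods name. Over all 36998 genes tested with 1 probe each, 6.87% were called higher and 1.14% lower in Selenbp1-KO at that threshold, 2 passed after Benjamini–Hochberg adjustment at 0.05, and in 10.2% every Selenbp1-KO array lay above every WT array. The median gene was 0.13 higher. This shift depended on the scaling, as over all 56097 probes tested the median was 0.11 as reported, 0.00 with quantile normalization, and −0.16 with no scaling between arrays, and the calls split into 3632 higher and 847 lower as reported, 2527 and 2169 with quantile normalization, and 645 and 4412 with no scaling.

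All 9 member probes passed the filter of detection on at least 1 array. Of these, 7 were well above background on all 6 arrays, and the probe of Ahsp and the second probe of Hemgn were so on none. In 5 of the 7 genes (Hba-a1, Hbb-b1, Hbb-bt, Alas2, and Ahsp) every Selenbp1-KO array lay above every WT array, beside 10.2% of all genes, and the same 5 had an unadjusted p under 0.05 in the fit over all probes, beside 6.87%. Both counts follow from how the genes were chosen, so nothing is read from them. The median difference over the 7 genes was 0.86 in log2 units, beside 0.13 over all genes. Over the 6 genes read by a probe well above background, Hemgn among them, it was 0.71, beside 0.00 over 28513 probes. These medians follow from the choice of genes too.

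**Figure D1:**
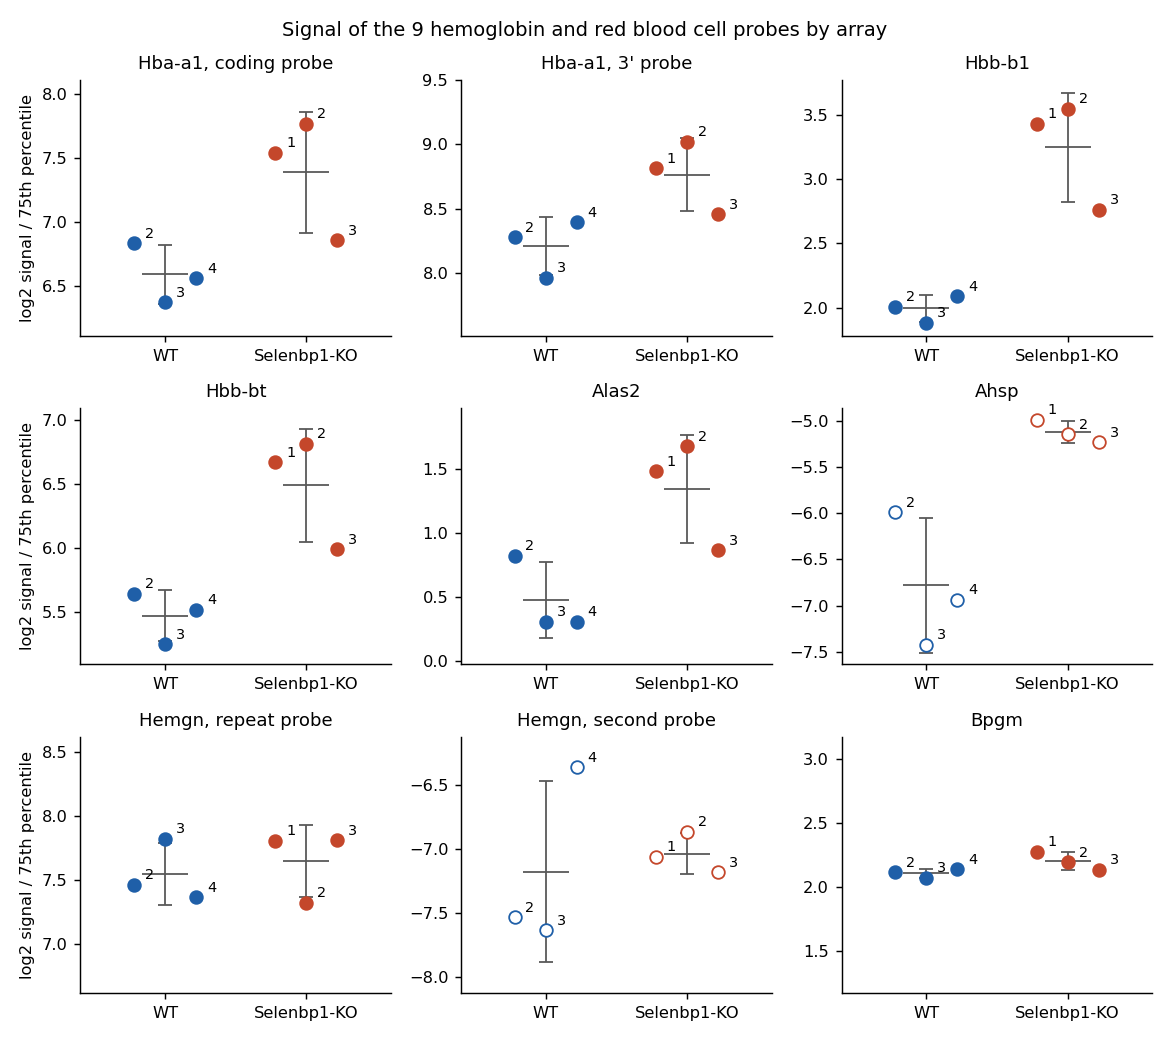
Signal of the 9 probes, 1 panel each, as log2 relative to the 75th percentile of the array (y axis; the panels have different ranges) for 3 WT and 3 Selenbp1-KO arrays (x axis), with the replicate number beside each point and the mean ± SD as bars. Open circles mark probes that no array read well above background. The hemoglobin and Alas2 panels separate the genotypes, with Selenbp1-KO replicate 3 lowest of its group, and the Bpgm and Hemgn panels do not.

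The α-globin signal was higher in every Selenbp1-KO kidney. The coding probe of Hba-a1 (NM_008218, mm9 chr11:32183955-32184014, plus strand) was at 6.83, 6.37, and 6.56 in WT, and at 7.54, 7.77, and 6.86 in Selenbp1-KO. Selenbp1-KO replicate 3 lay 0.02 above the highest WT array, and the other two Selenbp1-KO arrays stood clear of all WT arrays. The group means were 6.59 ± 0.23 and 7.39 ± 0.47 (SD, n = 3 each), a difference of 0.80 (standard error 0.26), or 1.74-fold. The array carries 10 spots of this probe, and their SD within an array was 0.017 to 0.042 in log2 units, well under the spread between mice.

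The 3′ probe of Hba-a1 (mm9 chr11:32184427-32184486, plus strand), the brighter of the gene's probes, was at 8.27, 7.96, and 8.39 in WT and at 8.82, 9.02, and 8.46 in Selenbp1-KO. Here too the groups did not overlap, with 0.07 between Selenbp1-KO replicate 3 and WT replicate 4. The difference was 0.56 (standard error 0.19), or 1.47-fold, from group means of 8.21 ± 0.22 and 8.76 ± 0.29 (SD, n = 3 each). Its 10 spots had an SD of 0.035 to 0.085 within an array, and the brightest of them reached 34.4% of the saturation level. The coding probe minus the 3′ probe ranged from −1.83 to −1.44 over WT arrays and from −1.60 to −1.26 over Selenbp1-KO arrays, which overlap, so the smaller difference of the 3′ probe was within the spread between mice. With quantile normalization, which gives every array the same distribution of values, the difference of the 3′ probe was 0.26 and that of the coding probe 0.66. Against WT replicate 4 alone, the WT array of the same slide row, the differences were 0.37 and 0.83.

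The β-globin probes were also higher in every Selenbp1-KO kidney, with larger differences. Hbb-bt is one of the adult β chains of C57BL/6J, and which Hbb genes the Selenbp1-KO mice carry was not tested. Its probe (NM_008220, mm9 chr7:110961105-110961164, minus strand) was at 5.64, 5.25, and 5.52 in WT, and at 6.67, 6.81, and 5.99 in Selenbp1-KO. The lowest Selenbp1-KO array lay 0.35 above the highest WT array. The difference was 1.02 (standard error 0.24), or 2.03-fold, between means of 5.47 ± 0.20 and 6.49 ± 0.44 (SD, n = 3 each).

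The probe named Hbb-b1, which also reads Hbb-bs (mm9 chr7:110976379-110976438, minus strand), was at 2.01, 1.88, and 2.09 in WT and at 3.43, 3.55, and 2.76 in Selenbp1-KO. It left the widest gap of the probes well above background, 0.67 between Selenbp1-KO replicate 3 and WT replicate 4. The difference was 1.26 (standard error 0.22), or 2.39-fold, between means of 1.99 ± 0.10 and 3.25 ± 0.43 (SD, n = 3 each). Within the second slide row the differences of Hbb-bt and Hbb-b1 were 0.97 and 1.16, with 3 of 3 Selenbp1-KO arrays above WT replicate 4. The Hbb-b1 probe minus the coding probe of Hba-a1 was −4.83 to −4.47 over WT arrays and −4.22 to −4.09 over Selenbp1-KO arrays, so the genotypes did not overlap in this ratio either. Its difference in means was 0.46, given as a description.

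Alas2, the erythroid enzyme that starts heme synthesis, was higher as well. Its probe (NM_009653, mm9 chrX:147004993-147005052) was at 0.82, 0.31, and 0.31 in WT, and at 1.48, 1.68, and 0.87 in Selenbp1-KO. WT replicate 2 and Selenbp1-KO replicate 3 were 0.04 apart and the other arrays were well separated. The difference was 0.86 (standard error 0.26), or 1.82-fold, and 1.03 against WT replicate 4 alone. The means were 0.48 ± 0.30 and 1.34 ± 0.42 (SD, n = 3 each).

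Ahsp, the chaperone of free α chains, gave no level that can be used. Its probe (NM_133245) was not well above background on any of the 6 arrays, with values of −5.99, −7.42, and −6.94 in WT and −4.99, −5.14, and −5.23 in Selenbp1-KO. The Selenbp1-KO values all lay higher, but they sit at the floor of the arrays, where the lowest signal well above background was −5.40 to −4.63. They passed the weaker mark of detection, a p under 0.05 against background, on 2 WT and 3 Selenbp1-KO arrays. No fold is given, since neither group was well above background. With normexp background correction, which treats dim signals differently, the difference went from 1.66 to 0.38.

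**Figure D2:**
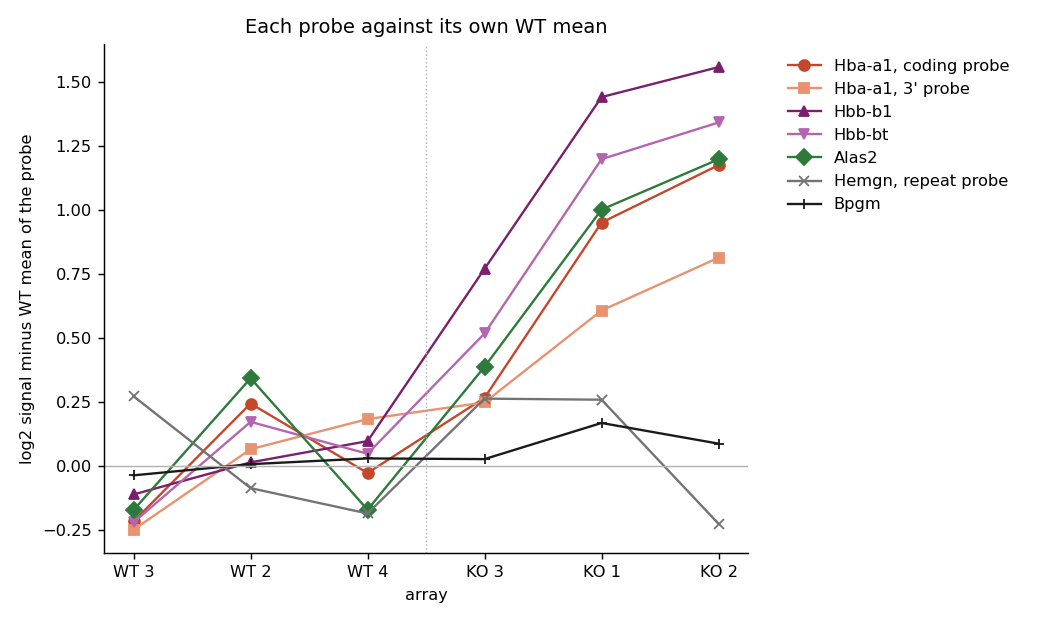
Log2 signal of each of 7 probes minus that probe's own WT mean (y axis) over the 6 arrays (x axis; WT left of the dotted line, Selenbp1-KO right). The globin and Alas2 lines climb from Selenbp1-KO replicate 3 through replicate 1 to replicate 2, up to 1.56 above the WT mean for Hbb-b1, while Bpgm stays within 0.17 of its WT mean and the repeat probe of Hemgn takes another course.

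The Selenbp1-KO mice ranked alike on the globin and Alas2 probes. Averaged over the brightest probes of Hba-a1, Hbb-b1, and Hbb-bt, each centered on its mean over the arrays, the hemoglobin signal was −0.39, −0.67, and −0.36 in WT, and 0.61, 0.77, and 0.04 in Selenbp1-KO. In both probes of Hba-a1 and in Hbb-b1, Hbb-bt, and Alas2, WT replicate 3 was the lowest and Selenbp1-KO replicates 3, 1, and 2 followed each other upward. For Alas2, WT replicates 3 and 4 were level at 0.31. The order of WT replicates 2 and 4 changed between probes. Pearson's r with this hemoglobin pattern over the 6 arrays, as a description of arrays that share genotype, slide, and scaling, was 0.95 for Alas2, 0.87 for Bpgm, and −0.12 for the repeat probe of Hemgn. Computed on deviations from the genotype means, it was 0.85, 0.74, and −0.73.

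Bpgm, the enzyme of 2,3-bisphosphoglycerate, did not separate the groups. Its probe (NM_007563, mm9 chr6:34454792-34454851) was at 2.12, 2.07, and 2.14 in WT, and at 2.28, 2.20, and 2.14 in Selenbp1-KO. The difference was 0.09 (standard error 0.10), and −0.18 with no scaling between arrays. The 0.09 lay under the shift of 0.13 of the median gene, but above the median of 0.00 over probes well above background. Bpgm varied little, with an SD of 0.03 over WT and 0.07 over Selenbp1-KO arrays (n = 3 each).

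The probes of Hemgn disagreed. The repeat probe (NM_053149, mm9 chr4:46407248-46407307) was at 7.46, 7.82, and 7.37 in WT and at 7.81, 7.33, and 7.81 in Selenbp1-KO, with WT replicate 3 highest and Selenbp1-KO replicate 2 lowest. The second probe, only a short distance away in the same gene (mm9 chr4:46407366-46407425), was not well above background on any array, and its values were between −7.64 and −6.36 over WT arrays and between −7.18 and −6.87 over Selenbp1-KO arrays. The difference of the repeat probe was 0.10 (standard error 0.20) and changed sign with quantile normalization (−0.05) and with no scaling (−0.17).

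The array holds 70 other probes with a run of alternating T and G of at least 16 bases. All 70 were well above background on all 6 arrays, against 47.4% of all probes, and so were 37 of 42 probes with the complementary run. The repeat probe of Hemgn was above its mean on the same 3 arrays as the median of these probes. Its centered values were −0.14, 0.22, and −0.24 in WT and 0.21, −0.28, and 0.21 in Selenbp1-KO, where the median of the 70 was −0.17, 0.17, −0.23, 0.22, −0.25, and 0.24. Pearson's r with the Hemgn probe over the 6 arrays was 0.99 in the median and over 0.9 for 49 of the 70, as a description. The signal under the name of Hemgn is therefore not read as a level of Hemgn here, and its second probe was not well above background on any array.

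**Figure D3:**
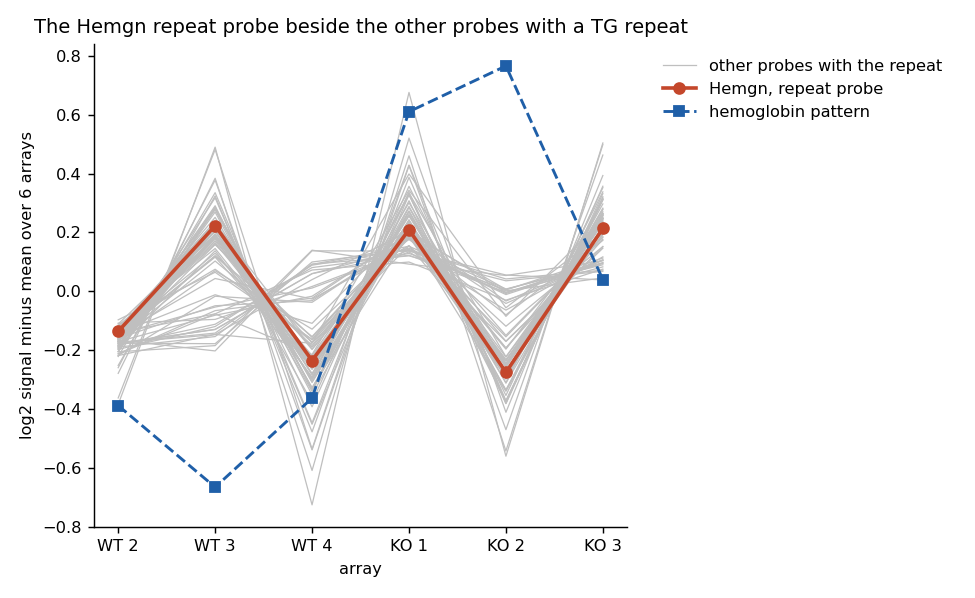
Log2 signal minus the mean over the 6 arrays (y axis) by array (x axis) for 70 probes with a TG repeat (gray), the repeat probe of Hemgn (red), and the hemoglobin pattern (blue, dashed). The Hemgn probe runs inside the gray band, up in WT replicate 3 and Selenbp1-KO replicates 1 and 3, where the hemoglobin pattern has its lowest array in WT replicate 3 and its highest in Selenbp1-KO replicate 2.

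Probes of other globin genes fell into those that share sequence with the members and those near background. The probe named Hba-a2 was at 8.23, 7.94, and 8.33 in WT and 8.76, 8.94, and 8.40 in Selenbp1-KO, a difference of 0.53 (standard error 0.18), and the probe named Hbb-b2 was at 3.74, 3.43, and 3.73 in WT and 4.99, 5.16, and 4.27 in Selenbp1-KO, a difference of 1.17 (standard error 0.25). These probes are also listed for members, Hba-a1 and Hbb-b1, and are no separate evidence. Which Hbb transcripts the Hbb-b2 probe reads in these mice was not tested. The call of Hba-a2 was lost with no scaling between arrays and with the methods' t-test. It was also lost when WT replicate 2 or 3, or replicate 1 or 2 of Selenbp1-KO, was left out. Of 11 other globin genes tested, Hba-a2 and Hbb-b2 were the 2 called higher, and none was called lower. Cygb, a globin of fibroblast-like cells rather than of red cells, differed by 0.24 (limma, unadjusted p = 0.053, adjusted p = 0.279). Not well above background on any array were Hbb-bh2, Hbb-y, and Hba-x, globins of the embryo, and Hbq1b, Mb, and Ngb. The median over the 11 was 0.36 and fell to 0.00 with quantile normalization.

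Few other genes of the red cell were called beside the globins. The lists of other globins, red cell membrane, red cell enzymes and reticulocyte maturation, and erythroid transcription factors hold 57 tested genes. Of these, 4 were called higher and 1 lower in limma. The shares over all genes were 6.87% and 1.14%, so the count over the 57 is near the background. With only probes well above background, 6 of 30 were called higher, Hba-a2 and Hbb-b2 among them, beside 1838 of 28513 probes. By list the 6 were 3 of 3 other globins, 1 of 9 membrane genes, 2 of 13 enzyme and reticulocyte genes, and 0 of 5 erythroid factors. Without Hba-a2 and Hbb-b2, which share sequence with the members, 2 of 55 were called higher. That last count includes the genes not well above background, and it was not taken over the filtered probes. The median over the 57 was 0.08, beside 0.13 over all genes, and 23 of them were not well above background on any array. With only probes well above background, the median was 0.03 over 30 of these genes, beside 0.00 over 28513 probes. After adjustment over all probes none of the 57 passed, the lowest adjusted p being 0.279.

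In the red cell membrane list 0 of 20 genes were called higher and 1 lower, and 11 were not well above background on any array, among them Ank1 (ankyrin), Epb42, Rhag, Rhd, and Kel. The 1 called lower, Tmod1, a cap of actin filaments, was itself among these 11. With only probes well above background, 1 of 9 genes in this list was called higher and 0 lower. Of the brightest, Epb41, protein 4.1 of the membrane skeleton, differed by −0.23 (unadjusted p = 0.097 in limma), Mfsd2b, a sphingosine-1-phosphate exporter, by 0.01 (unadjusted p = 0.964), Tspan33 by 0.00 (unadjusted p = 0.989), and Dmtn, dematin, by 0.29 (unadjusted p = 0.406). The direction of Mfsd2b and Tspan33 turned with quantile normalization.

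Of 16 red cell enzyme and reticulocyte genes 2 were called higher and 0 lower, with a median difference of 0.01. Of the 2, Isg20, an exonuclease induced by interferon, was at −0.64, −0.76, and −0.79 in WT and at 0.05, −0.03, and −0.39 in Selenbp1-KO. Its difference was 0.60 (standard error 0.15, unadjusted p = 0.006, adjusted p = 0.279 in limma). Every Selenbp1-KO array lay above every WT array, with replicate 3 again the lowest of its group, and the call was lost with no scaling between arrays. Prdx2, a peroxidase abundant in red cells, differed by 0.09, Fbxo7 by −0.05, Bnip3l, which clears mitochondria from reticulocytes, by 0.02, and Xpo7 by −0.09, and none of these passed.

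Of 10 erythroid transcription factors with the erythropoietin receptor, 0 were called in either direction, and Gata1, Nfe2, Gfi1b, Bcl11a, and Myb were not well above background on any array. Klf1, the activator of adult β-globin, was at −2.21, −2.16, and −2.37 in WT and −2.33, −3.14, and −2.54 in Selenbp1-KO, a difference of −0.42 (limma, unadjusted p = 0.107). Epor, the erythropoietin receptor, differed by −0.51 (unadjusted p = 0.139). Both had overlapping groups. Epo, the hormone that the kidney makes for red cell production, was not well above background on any array, so its call (unadjusted p = 0.039) rests on values at the floor.

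Of the genes of heme synthesis and transport outside Alas2, 0 of 15 were called in either direction, with a median difference of 0.02. All 15 were well above background. Alas1, the form of the enzyme that other tissues use, was at 5.78, 6.16, and 6.01 in WT and 5.55, 5.62, and 6.04 in Selenbp1-KO, a difference of −0.25 (standard error 0.18, limma unadjusted p = 0.207). Fech, which puts iron into heme, differed by −0.11 (unadjusted p = 0.295), Tmem14c by 0.07 (unadjusted p = 0.510), and Slc25a39, a mitochondrial carrier, by 0.16 (unadjusted p = 0.174). With quantile normalization 2 of the 15 were called lower.

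Among 11 genes that clear hemoglobin and heme, 1 was called higher. Cd163, the macrophage receptor for hemoglobin bound to haptoglobin, was at −4.96, −4.52, and −5.84 in WT and −4.15, −4.06, and −4.07 in Selenbp1-KO, a difference of 1.01 (standard error 0.33, limma unadjusted p = 0.021, adjusted p = 0.279), which was lost with quantile normalization, with the deposited table, with no scaling between arrays, with the methods' t-test, and without Selenbp1-KO replicate 2 or 3. Lrp2 and Cubn, the receptors by which proximal tubule cells take up filtered hemoglobin, differed by −0.01 and −0.03 (unadjusted p = 0.917 and unadjusted p = 0.840). Hmox2, the constitutive heme oxygenase, and Slc48a1, a heme transporter, differed by 0.00 and −0.04. In the glycolysis list, whose products feed Bpgm, 0 of 9 genes were called in either direction, and the median was 0.03. With quantile normalization 3 of the 9 were called lower and the median was −0.06, and with no scaling 0 were called and it was −0.25.

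**Figure D4:**
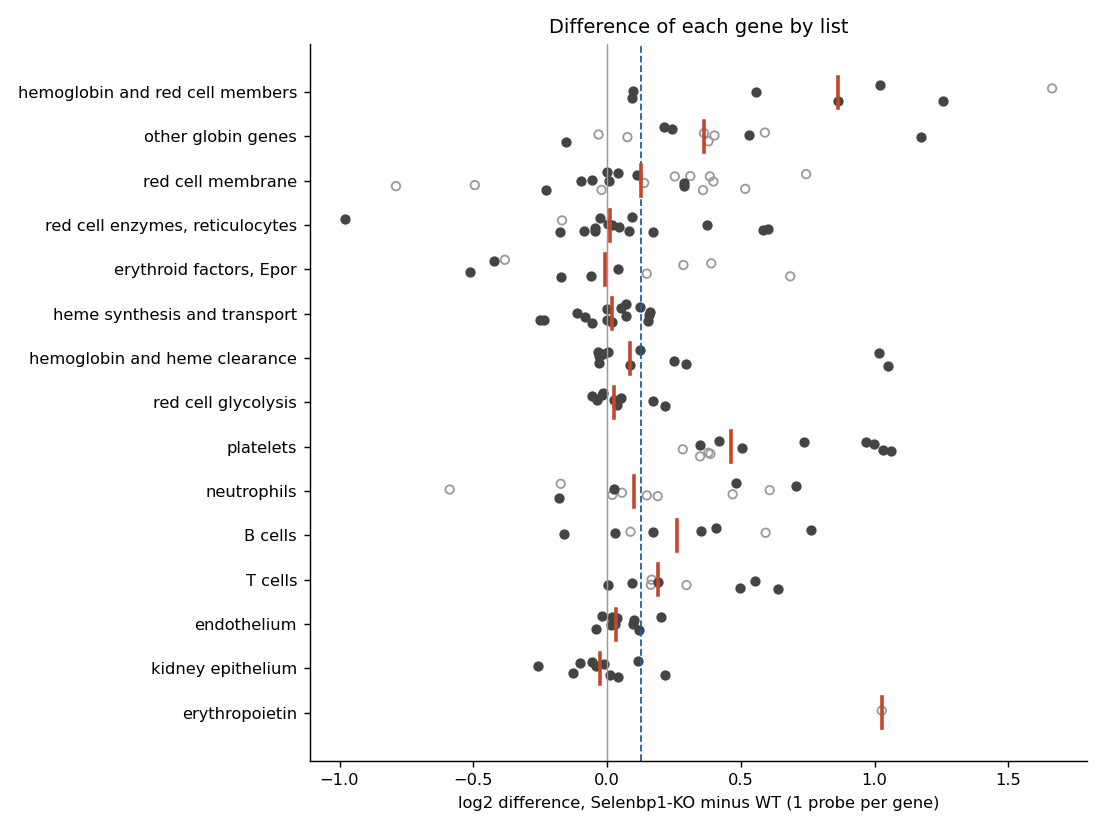
Log2 difference, Selenbp1-KO minus WT (x axis), of each tested gene by list (y axis), with filled points for probes well above background on at least 1 array, open points for the others, a red bar at each list's median, and a dashed blue line at the median of all genes, 0.13. Apart from the single gene Epo, the members and the platelet list lie furthest to the right, at medians of 0.86 and 0.46, and the heme synthesis, glycolysis, endothelium, and kidney epithelium lists lie close to 0.

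Markers of other blood cells were read on the same arrays, since whole blood carries them too. Platelet genes were higher in Selenbp1-KO for 12 of 12 genes, beside 68.4% of all genes, and 5 of the 12 were called higher in limma, beside 6.87% of all genes. Their median difference was 0.46, and their summed linear signal relative to the 75th percentile was 0.94, 0.70, and 0.66 in WT and 1.61, 1.55, and 1.0 in Selenbp1-KO. Gp1ba, Gp1bb, Gp5, and Tubb1 of this list were not well above background on any array. Their differences were 0.28 to 0.39 and are not read as platelet levels. With only probes well above background, 7 of 7 platelet genes were higher and 4 were called higher, beside 1838 of 28513 probes called higher. Pf4, a chemokine of platelet granules, was at −1.23, −1.77, and −1.88 in WT and at −0.29, −0.31, and −1.09 in Selenbp1-KO. The difference was 1.06 (standard error 0.28, unadjusted p = 0.009, adjusted p = 0.279 in limma), with replicate 3 again the lowest Selenbp1-KO array. Ppbp, another granule chemokine, differed by 1.03 (unadjusted p = 0.019), Treml1, a receptor stored in the granules, by 0.97 (unadjusted p = 0.025), and Clec1b, the platelet receptor for podoplanin, by 0.74 (unadjusted p = 0.019). The fifth, Gp6, was well above background on 1 array, and Treml1 was so on 2 of 3 WT arrays. With no scaling between arrays 0 of the 12 were called, although 12 of 12 stayed higher, and without Selenbp1-KO replicate 1 or 2 there were 2. The methods' t-test called 3. The part of blood content in the hemoglobin values was not tested.

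Markers of white cells and of the vessel wall were read in the same way. Of 12 neutrophil genes 0 were called, with a median of 0.10 that turned to −0.15 with quantile normalization and −0.17 with no scaling. Their summed signal was 1.15 to 1.43 in WT and 1.20 to 1.45 in Selenbp1-KO, and 8 of the 12 were not well above background on any array. Most of this sum came from Elane, which differed by −0.18 (limma, unadjusted p = 0.229). S100a9 and S100a8, the most abundant calcium-binding proteins of neutrophils, differed by 0.71 (limma, unadjusted p = 0.241) and 0.48 (unadjusted p = 0.328). Of 8 B cell genes 2 were called higher, Pax5 by 0.76 (unadjusted p = 0.015) and Fcmr by 0.35 (unadjusted p = 0.016), while Cd79b, a chain of the B cell receptor, differed by −0.16 (unadjusted p = 0.523). In all, 7 of the 8 were higher, beside 68.4% of all genes. Their median was 0.26, beside 0.13 over all genes, and −0.01 with no scaling between arrays. Pax5 was well above background on 2 of 3 WT arrays. The summed signal of the B cell genes overlapped, at 0.65 to 0.83 in WT and 0.79 to 0.92 in Selenbp1-KO. Of 9 T cell genes 1 was called higher, Cd3e by 0.64 (limma, unadjusted p = 0.032). All 9 were higher, with a median of 0.19, which turned to −0.08 with no scaling between arrays. Their summed signal was 2.12 to 2.58 in WT and 2.48 to 2.78 in Selenbp1-KO, most of it from Cd4, which differed by 0.00. All 3 of these calls were lost within the second slide row, those of Pax5 and Fcmr also with no scaling between arrays, that of Fcmr without WT replicate 3 or Selenbp1-KO replicate 3, and that of Cd3e without WT replicate 2 or 3 or any 1 of the Selenbp1-KO arrays. Of 10 endothelial genes 0 were called, with a median of 0.03 and a summed signal of 48.1 to 55.1 in WT and 50.9 to 59.6 in Selenbp1-KO.

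Among 1896 genes outside the members that were well above background on all arrays with an SD of at least 0.3, the pattern over the 6 arrays most like that of hemoglobin was that of Hbb-b2 (Pearson's r = 0.999). Others among the 10 most alike were an unnamed transcript (0.99), Unc93a2 (0.99), Zdhhc22 (0.99), another unnamed transcript (0.99), an unnamed transcribed interval (0.99), AW112010 (0.98), Meg3 (0.98), and Hba-a2 (0.98). In all, 25 of these genes had an r of at least 0.95. These are descriptions over 6 arrays on which the genotype sets much of the order. Zdhhc22, of the palmitoyltransferase family, was at −0.13, −0.53, and −0.16 in WT and at 1.06, 1.47, and 0.21 in Selenbp1-KO, in the same order of arrays as the hemoglobin pattern within Selenbp1-KO. Meg3, an imprinted noncoding RNA, was at −3.39, −3.58, and −3.27 in WT and at −2.42, −1.83, and −2.76 in Selenbp1-KO.

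The direction of the hemoglobin and Alas2 differences was the same under 20 alternatives of processing, but some of these could not change it. The filters, the trend and robust options, and the methods' t-test leave the difference as it is. Both slide row alternatives give the same difference. The difference ranged from 0.53 to 1.06 for the coding probe of Hba-a1, from 0.26 to 0.71 for its 3′ probe, from 0.99 to 1.50 for Hbb-b1, from 0.75 to 1.27 for Hbb-bt, and from 0.59 to 1.1 for Alas2. The highest value of each was that without Selenbp1-KO replicate 3, and the lowest came with no scaling between arrays, or with quantile normalization for the 3′ probe of Hba-a1. The repeat probe of Hemgn ranged from −0.17 to 0.28 and Bpgm from −0.18 to 0.13.

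**Figure D5:**
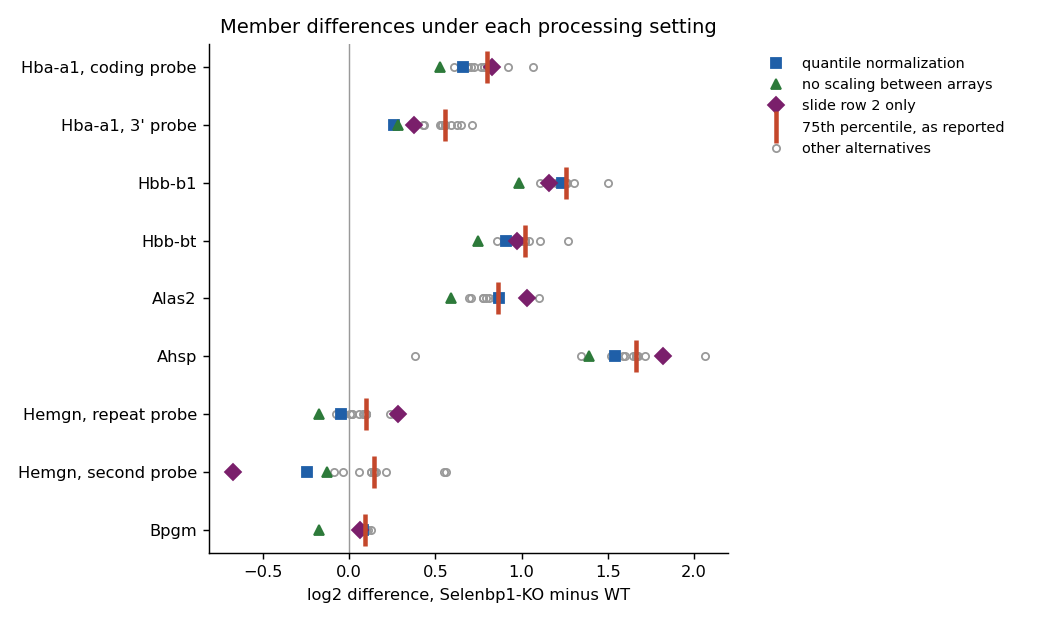
Log2 difference, Selenbp1-KO minus WT (x axis), of the 9 probes (y axis) as reported (red bars), with quantile normalization (blue squares), with no scaling between arrays (green triangles), within the second slide row (purple diamonds), and under the other alternatives (gray circles). The globin and Alas2 probes stay to the right of 0 throughout, from 0.26 for the 3′ probe of Hba-a1 to 1.50 for Hbb-b1, and both Hemgn probes and Bpgm have values on either side of 0.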

How the data were processed

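Total RNA of the left kidneys of 3 WT and 3 Selenbp1-KO mice was measured on 6 single-color Agilent arrays, 1 per mouse. The authors scanned them with Agilent Feature Extraction (version 9.5.1.1 in the submitters' processing notes, 10.7.1.1 in the file headers, which give array design 074809 on mm9) and deposited for each spot a linear intensity, background-subtracted and detrended within the array and left unscaled between arrays, and a p-value against its background. A deposited table of 1 intensity per probe has the same quartiles in all 6 columns and ranks probes as the scanner intensities do, so it was used as quantile normalized values. The RNA kit differs between the labels and the methods.

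The log2 intensity was taken minus the log2 of each array's 75th percentile over non-control spots. Outlier spots were dropped, spots of 1 probe averaged, and the 56097 probes detected (p under 0.05) on 1 array or more were fitted with limma 3.58.1 (lmFit, then eBayes, two-sided; R 4.3.3). A gene is read by its probe of highest mean. Names follow the files for members, and otherwise RefSeq (GRCm38.p6), through the accessions of 32994 probes. Calls were made, following the methods, at an unadjusted p under 0.05, and Benjamini–Hochberg values stand beside them. A probe is well above background as the scanner software marks it. In 5 simulated runs of this comparison over 56097 probes, 200 of them changed, 87.7% of changes of 1 log2 unit were found, and 5.42% of unchanged probes were called. Each probe was drawn on its own in these runs, without shifts shared by the probes of an array. The rates on the real arrays can therefore differ from these. The number of arrays limits the precision.

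The members and the gene lists were chosen with earlier results of these data known. Genes were named by a rule: every member and every probe of it; in each list up to 4 genes that passed and were well above background on all arrays of a genotype, by size, and up to 4 that did not pass, by brightness; Epo and Selenbp1; and the 10 genes most like the hemoglobin pattern. Tmod1 and Gp6, and the genes named as not well above background, were named after their values were seen. Alternatives were normexp background correction (offset 50), quantile normalization, median scaling, the deposited table, no filter, a filter on probes well above background, outlier spots kept, trend and robust options (statmod 1.5.0), the methods' t-test, the slide row as a block or its second row alone, the replicate number as a block, each array left out, and averaging a gene's probes. No scaling between arrays, and the red cell lists without Hba-a2 and Hbb-b2, were chosen after seeing the data. No sample was left out. Some genes of the lists stay in the counts and medians but are not reported here by name.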

Additional observations from a re-analysis of the deposited data

How the results depend on the processing

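The median difference of the 7 genes was 0.86 as reported, 0.53 with normexp background correction, and 0.69 to 1.1 with each array left out. Hemgn changed sign with quantile normalization (−0.049), with no scaling between arrays (−0.17), with the deposited table (−0.028), and with the replicate number as a block (−0.074). Bpgm changed sign with no scaling (−0.18), as did the median of the 57 other red cell genes (−0.19). The count of probes called, 4479, was 14616 with median scaling, 2841 with probes well above background only, where fewer probes are tested, 7536 with trend and robust options, and 2023 to 17586 with each array left out, the lowest without WT replicate 2 and the highest without WT replicate 4. It was also below the reported count by over 1.5 times without WT replicate 3 (2627) or Selenbp1-KO replicate 2 (2808). The count of the 57 red cell genes called, 5, stands beside 4479 of 56097 probes. It was 10 with median scaling, beside 14616 of 56097, and 10 with trend and robust options, beside 7536 of 56097. With probes well above background only it was 6 of 30, beside 2841 of 28513. It was 3 without Hba-a2 and Hbb-b2. With each array left out it was 4 to 11, the highest without WT replicate 4, beside 17586 of 56097. Except for the filtered counts and those without Hba-a2 and Hbb-b2, the cause was not tested.

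The replicate numbers shared by the genotypes, 2 and 3, are not said to pair mice. Deviations of same-numbered arrays from their genotype means correlated at 0.17 and 0.19, and those of other pairs at −0.33 to 0.19. With the replicate number as a block on these 4 arrays, 18430 of 56097 probes and 15 of the 57 red cell genes were called. The median difference of the 7 genes was then 0.71. Signal over background limits what can be said of Ahsp, Hemgn, Epo, and the red cell membrane genes.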
